A study of Mus musculus with 2 samples.

Results

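The 8 genes described here, Gata4, Gata6, Sox17, Sox7, Pdgfra, Foxa2, Hnf4a and Dab2, are regulators and markers of primitive endoderm, chosen by name out of 21486 protein-coding mouse genes. The study mapped where NANOG, a homeodomain transcription factor, sits on the genome of E14TG2a.4 cells, using chromatin immunoprecipitation and sequencing (ChIP-seq). These are pluripotent stem cells of a male 129/Ola embryo, kept as a line. There was 1 group of 2 biological replicates, which share the line, its donor, the antibody and the labelled age of 3.5 days, and no second condition. A NANOG site was the summit of a peak in the authors' optimal set on genome build mm10, the larger of their 2 sets (15891 peaks) made with the irreproducible discovery rate (IDR), a measure of how well ranked lists repeat. Membership of this set does not mean that a peak was found in each replicate, so replicate support is given separately. A site was assigned to a gene if it lay in the gene body or within 50 kb of the transcription start site (TSS).

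Primitive endoderm is the extraembryonic layer that separates from the pluripotent epiblast inside the blastocyst. In this choice NANOG marks the epiblast and GATA6 the primitive endoderm, FGF signalling favours the endoderm, and NANOG and GATA6 are known to oppose each other. GATA4, SOX17 and SOX7 act after GATA6, and laminin, collagen IV and endocytic receptors follow as the layer matures. Peak lists measure where a protein was bound, not how much RNA a gene made, so neither the endoderm identity of these genes nor a repression by NANOG could be checked in these data.

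NANOG sites lay at 4 of the 8 genes: Pdgfra had 3 summits in the window, Foxa2 had 4, Hnf4a had 4 and Dab2 had 2. The GATA and SOX factor genes Gata4, Gata6, Sox17 and Sox7 had 0. The share was 50% for the 8 genes (95% Clopper-Pearson interval 15.7 to 84.3), against 48.4% of all protein-coding genes counted the same way, so the share among the 8 was near the background. The interval covers counting error only, and read depth is unknown. The signal of the 13 summits, the authors' enrichment statistic on a scale that is not stated, ran from 7.80 to 60.5 with a median of 30.2, and 3 were above the median of the optimal set, 40.2. The same set reached 675.8.

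**Figure D1:**
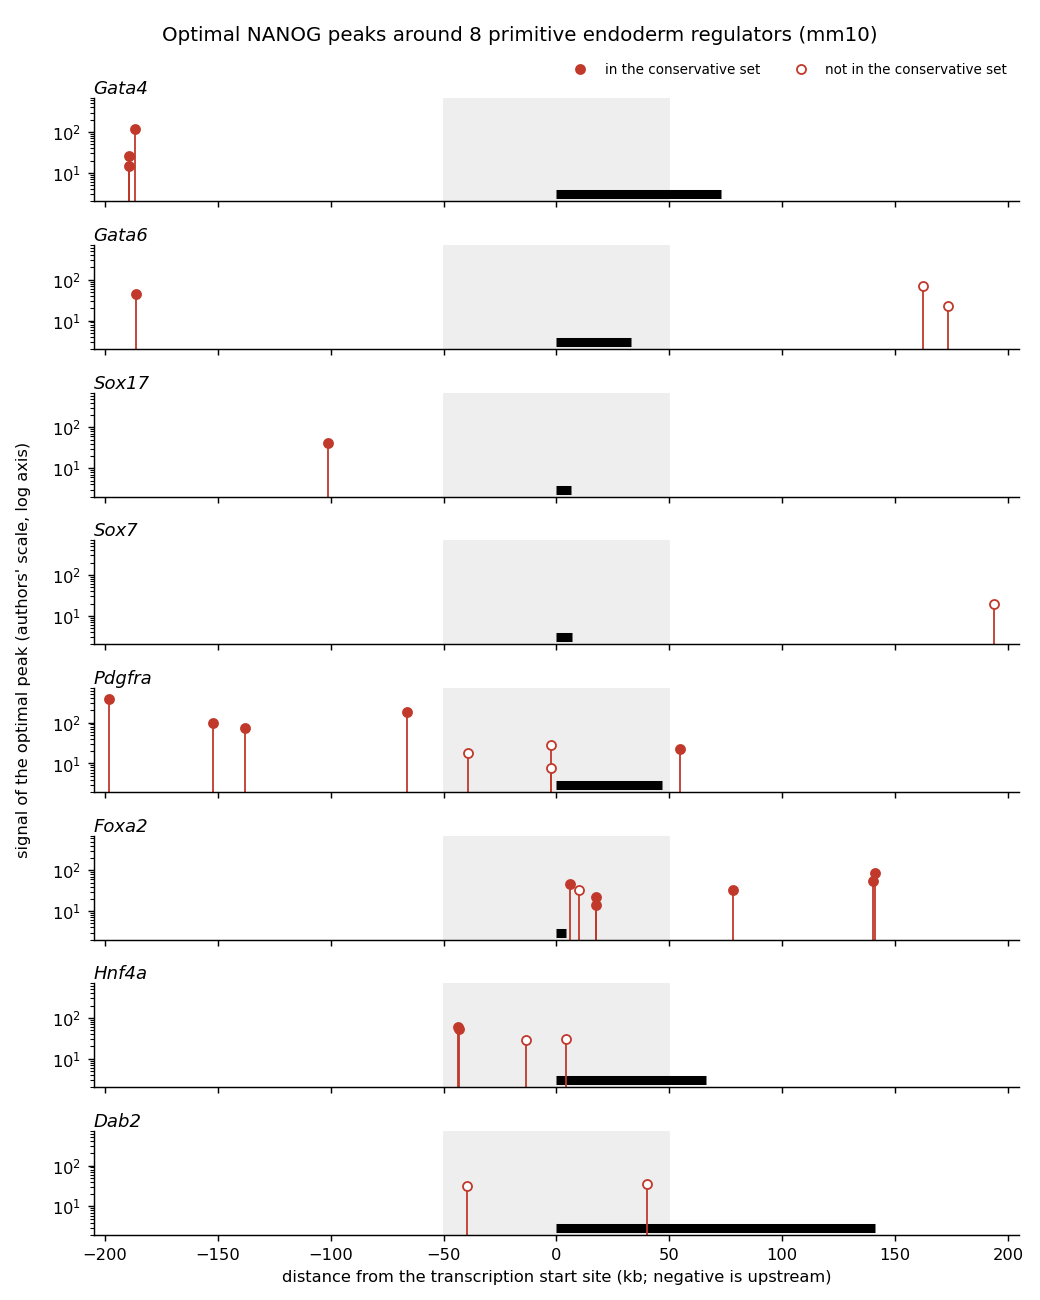
Optimal NANOG peaks around the 8 genes, by distance from the TSS in kb (x axis, upstream negative) and the authors' signal (y axis, log scale). Grey marks 50 kb to each side of the TSS, black bars the gene, filled points peaks also in the conservative set. The grey windows of Gata4, Gata6, Sox17 and Sox7 are empty, and their nearest peaks lie 101.2 to 194.0 kb away.

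Of the 13 summits, 2 lay inside the gene they were assigned to, 1 inside another gene and 10 outside any protein-coding gene, with 7 upstream and 6 downstream of the TSS. The same counts over the whole optimal set are not given here. Distances ran from 2.40 to 43.4 kb, so 0 lay within 1 kb of the TSS of the assigned gene. Measured to the nearest protein-coding TSS, the closest of the 13 was 1.81 kb away, from that of R3hdml. By that measure 3.20% of optimal summits on assembled chromosomes lay within 1 kb, so 0 of 13 was near the background. The deposited regions of some neighbouring summits overlap, and joined they make 10 places: 2 at Pdgfra, 3 at Foxa2, 3 at Hnf4a and 2 at Dab2. Joined in the same way, the 15891 summits of the optimal set make 15216 places. Joining thus removed a larger part of the member summits than of the set.

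Hnf4a encodes a nuclear receptor that visceral endoderm, a tissue that this layer forms, needs for its secreted proteins. It lies on chromosome 2 (mm10, 163506811 to 163572907, plus strand). Its highest summit was 43.4 kb upstream of the TSS (163463180 to 163463543), with signal 60.5 and rank 4726 of 15891, and a second summit next to it (163463381 to 163463744) had signal 53.4 and rank 5612. These were the strongest of the 13. In the list of replicate 1 the place had rank 4937 and signal 45.7, and in that of replicate 2 it had rank 4834 and signal 14.5. It was the only one of the 10 places that fell in the top 15891 regions of each replicate, and it was also in the conservative set, the smaller of the authors' sets. The nearest TSS was not that of Hnf4a but that of Fitm2, a gene of lipid droplet formation, at 9.07 kb from the second summit. The other Hnf4a summits were weaker. One lay 13.6 kb upstream inside R3hdml (163493066 to 163493429, signal 29.6, rank 11060), and one lay 4.36 kb downstream inside Hnf4a itself (163510991 to 163511354, signal 30.2, rank 10804). Replicate 1 had these at ranks 12906 and 13265. Replicate 2 had them at ranks 151662 and 57430, far down its list of 300000 regions, and neither was in the conservative set.

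Foxa2, which encodes a forkhead factor of endoderm, had its summits on the far side of the gene. The gene spans 4.09 kb (mm10 chromosome 2, 148042877 to 148046969, minus strand), and the 4 summits lay 6.04, 9.94, 17.5 and 17.7 kb downstream of the TSS, all past its 3′ end and with Foxa2 as the nearest TSS. The closest (148040750 to 148041113) had the highest signal, 47.2, at rank 6518. The next (148036843 to 148037206) had signal 33.6 at rank 9682, and the farthest pair (148029067 to 148029430 and 148029278 to 148029641) had signals 22.5 and 13.8. The replicates ranked these places in different orders. Replicate 1 placed the site at 6.04 kb highest, with rank 6880 and signal 35.2, followed by the site at 9.94 kb (rank 9735, signal 26.5) and the one at 17.5 kb (rank 19580, signal 14.6). Replicate 2 placed the site at 17.5 kb highest, with rank 8908 and signal 10.6, followed by the one at 6.04 kb (rank 22901, signal 8.36) and the one at 9.94 kb (rank 111738, signal 5.88). The conservative set held the sites at 6.04 and 17.5 kb and not the one at 9.94 kb.

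Dab2 encodes an endocytic adaptor that primitive endoderm expresses together with the receptor megalin. It is the longest of the 8 genes, 140.9 kb (mm10 chromosome 15, 6299788 to 6440715, plus strand). One summit lay 40.1 kb downstream of the TSS inside the gene (6339684 to 6340047, signal 34.7, rank 9387) and one lay 39.6 kb upstream outside any gene (6259977 to 6260340, signal 31.9, rank 10200). Replicate 1 held them at ranks 9309 and 12063 with signals 27.4 and 22.0. Replicate 2 held the same places at ranks 71067 and 129372 with signals 6.56 and 5.66. The second was close to the median of its whole relaxed list, 5.43. Neither was in the conservative set.

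Pdgfra, the receptor tyrosine kinase gene used to mark primitive endoderm in the blastocyst, had the lowest highest signal of the 4 genes with a site (mm10 chromosome 5, 75151322 to 75198206, plus strand). Its highest summit lay 2.60 kb upstream of the TSS (75148538 to 75148901, signal 29.0, rank 11267), next to one at 2.40 kb with signal 7.80 and rank 15849, among the last of the optimal set. Measured from the start site of the RefSeq promoter table, 0.929 kb further downstream, the summit closest to it was 3.33 kb away. Replicate 1 had the place at rank 16727 with signal 16.5 and replicate 2 at rank 23193 with signal 8.34, so neither replicate alone placed it in its top 15891. The third summit, 39.3 kb upstream (75111881 to 75112244, signal 17.7, rank 15133), was nearer to the TSS of Gsx2, a homeobox gene, and was the only one of the 13 that overlapped no region of replicate 2. No Pdgfra summit in the window was in the conservative set.

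Many other genes had signals as high. A highest signal at least that of Hnf4a was present at 20.8% of all protein-coding genes. The same share was 26.7% for Foxa2, 34.7% for Dab2 and 39.2% for Pdgfra. By number of summits, 4 or more, as at Foxa2 and Hnf4a, were present at 4.99% of all genes, 3 or more, as at Pdgfra, at 10.8%, and 2 or more, as at Dab2, at 22.8%. A gene cluster can share summits, so genes are not independent in these shares. The genes most like Hnf4a in number and highest signal, over all 21486 genes, were Fitm2 and R3hdml, whose windows hold the same 4 summits, and Exoc2, a gene of vesicle tethering, with 4 summits and a highest signal of 60.3.

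Sequence was read at the centres of the mm9 peaks, as the genome sequence used was of that build. A centre is the midpoint of the deposited region, not a summit, and the series-level regions below are 741 to 1259 bp wide. No coordinate was converted, so the windows need not hold the mm10 summits. Sites without an mm9 peak have no sequence here. In the mm9 series-level list, called separately by the authors, 3 of the 8 genes had a peak centre in the window, against 45.5% of the protein-coding genes counted on mm9. Hnf4a had 1 peak, Foxa2 had 2 and Dab2 had 1, all intergenic by the mm9 annotation. Each lay at about the distance from its TSS that an optimal summit has on mm10: 43.3 kb upstream, 10.01 and 6.09 kb downstream, and 39.6 kb upstream. Pdgfra had a peak in the list of replicate 1 alone, 3.55 kb upstream and intergenic. The 201 bp around each centre are given on the plus strand of mm9, with any match to the 7 motifs searched in capitals.

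Hnf4a, chr2:163289098-163289298: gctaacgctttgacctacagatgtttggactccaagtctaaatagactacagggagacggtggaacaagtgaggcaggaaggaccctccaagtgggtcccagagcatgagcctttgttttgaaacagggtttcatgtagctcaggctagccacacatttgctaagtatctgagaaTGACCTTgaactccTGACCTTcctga
Foxa2, 10.01 kb, chr2:147862599-147862799: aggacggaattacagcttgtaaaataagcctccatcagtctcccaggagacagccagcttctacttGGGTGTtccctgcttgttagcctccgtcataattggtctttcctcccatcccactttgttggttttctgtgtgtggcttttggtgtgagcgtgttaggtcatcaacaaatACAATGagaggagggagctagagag
Foxa2, 6.09 kb, chr2:147866518-147866718: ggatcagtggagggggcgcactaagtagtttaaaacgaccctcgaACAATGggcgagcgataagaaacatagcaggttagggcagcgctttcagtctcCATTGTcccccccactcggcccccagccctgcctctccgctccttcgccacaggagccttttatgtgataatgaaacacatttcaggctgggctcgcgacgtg
Dab2, chr15:6210057-6210257: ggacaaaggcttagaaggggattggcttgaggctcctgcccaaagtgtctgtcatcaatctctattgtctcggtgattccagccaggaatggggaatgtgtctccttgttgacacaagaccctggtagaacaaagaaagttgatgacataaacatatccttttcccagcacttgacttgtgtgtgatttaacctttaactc
Pdgfra, replicate 1, chr5:75544664-75544864: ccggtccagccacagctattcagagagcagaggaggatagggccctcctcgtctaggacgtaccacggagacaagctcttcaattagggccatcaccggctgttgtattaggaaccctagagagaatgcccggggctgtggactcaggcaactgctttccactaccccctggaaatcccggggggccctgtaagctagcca

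Both strands were searched for 7 short motifs. TAATGG stood for the NANOG core. The homeodomain core was TAATTA, which is its own reverse complement. ATGCAAA is part of the OCT octamer. For SOX factors the core was ACAATG. The orphan receptor ESRRB was represented by AAGGTCA. For the GATA family, to which 2 of the 8 genes belong, the core was AGATAA. For KLF factors it was GGGTGT. No matches overlapped each other. Within 50 bp of the centre, the Foxa2 peak at 6.09 kb held the SOX core, which 16.1% of all 13341 series-level mm9 peaks held there, and the Foxa2 peak at 10.01 kb held the KLF core, held by 7.30%. At least 1 of the 7 was present in 2 of these 4 peaks and in 42.9% of all peaks. In the wider window of 100 bp to each side, the Hnf4a peak held the ESRRB motif in 2 copies, at 78 and 92 bp from the centre, and 12.9% of all peaks held at least 1. The SOX core was in 2 of the 4 windows of 201 bp and in 25.8% of all peaks. The NANOG core was in 0 of the 4 windows of 201 bp and in 11.8% of all peaks, and the GATA core in 0 and in 10.5%. In windows of this size centred 300 bp away, over all peaks, the NANOG core was in 7.96% and the GATA core in 11.5%. The GATA core was thus no more common at peak centres than beside them. Neither the Dab2 nor the Pdgfra window matched any of the letters. The GC content of the 5 windows was 48.3%, 47.8%, 56.2%, 44.8% and 58.2% in the order given, against a median of 45.3% over all peaks.

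The deposited mm9 values also put the Hnf4a peak highest and the Dab2 peak lowest, but the Foxa2 peaks in the other order from mm10. The enrichment, a ratio whose reference is not stated, was 9.73 for the Hnf4a peak (q-value 0.0005, rank 4319 of 13341). It was 7.55 and 6.88 for the Foxa2 peaks at 10.01 and 6.09 kb (q-values 0.0045 and 0.0096), and 4.70 for the Dab2 peak (q-value 0.0195, rank 11654). Only the Hnf4a peak was in the lists of both replicates, with an enrichment of 18.9 in replicate 1 and 7.64 in replicate 2. These mm9 lists differ in length, with 22082 peaks in replicate 1 and 6618 in replicate 2. How many of all series-level peaks are in both is not given here. An absence from the mm9 list of replicate 2 is therefore not shown to be particular to these genes. In replicate 1 alone, the peaks inside Dab2 (40.1 kb downstream, in an intron) and inside Hnf4a (4.34 kb downstream, in an intron) had q-values of 0.2172 and 0.2762. Also in replicate 1 alone were a Foxa2 peak 17.6 kb downstream (q-value 0.5169) and one in an R3hdml intron (q-value 0.3145). The mm9 list of replicate 2 had 0 Foxa2 peaks in the window. The Pdgfra peak had a q-value of 0.595. Gata4, Gata6, Sox17 and Sox7 had 0 peaks in the window in each of the 3 mm9 lists.

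Gata6, which encodes the zinc-finger factor that starts the primitive endoderm programme, had no optimal summit closer than 162.5 kb (gene on mm10 chromosome 18, 11052510 to 11085636, plus strand). That summit lay downstream, outside any gene and with Gata6 as the nearest TSS (11214869 to 11215232, signal 70.3, rank 3821), so it was stronger than any of the 13 in the windows. It had rank 2963 in replicate 1 and rank 78024 in replicate 2, and it was not in the conservative set. A further summit 173.5 kb downstream had signal 22.3. Inside the window, the highest region of the pooled relaxed list, which mixes peaks and background, lay 0.854 kb upstream of the TSS (11051474 to 11051837, signal 15.0, rank 29787). Replicate 1 had this promoter region at rank 17347, just below its top 15891, and replicate 2 had no region there. The highest region of replicate 2 was elsewhere, 45.5 kb upstream at rank 12004, and overlapped no region of replicate 1. The share of all replicate 2 regions without such an overlap is not given here. A lack of overlap at Gata6, and at Gata4 and Sox7 below, is therefore not shown to be particular to these genes.

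Gata4, the related zinc-finger gene that follows Gata6, had its nearest optimal summit 186.7 kb upstream (gene on mm10 chromosome 14, 63198914 to 63271712, minus strand). This site, inside Fam167a and nearest to its TSS (63458354 to 63458529), had signal 119.0 and rank 1669, and the conservative set held it, with ranks 1152 and 7280 in replicates 1 and 2. In the window, the highest pooled region lay 6.95 kb downstream of the TSS inside Gata4 (63264576 to 63264939, signal 17.2, rank 22883). Replicate 2 held it at rank 14864 and replicate 1 at rank 98329. The highest region of replicate 2 in the window, 26.1 kb upstream with rank 7917, overlapped none of replicate 1, and the highest of replicate 1, 25.5 kb downstream, had rank 37416.

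Sox17, an HMG-box factor gene of endoderm, had the lowest-ranked pooled region of the 8 (mm10 chromosome 1, 4490928 to 4497426, minus strand). That region, the highest in its window, 0.506 kb downstream of the TSS, had rank 101689, and 90.0% of all genes had a region of at least that rank. The highest regions of replicates 1 and 2 had ranks 52321 and 37526 and lay at different places, 9.47 kb upstream and 25.7 kb downstream. An optimal peak 101.2 kb upstream, outside any gene and with Sox17 as the nearest TSS (4598436 to 4598799), had signal 42.3 and rank 7468. It was in the conservative set and had ranks 8533 and 7056 in replicates 1 and 2.

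Sox7, a factor of the same SOX subgroup, had its nearest optimal summit 194.0 kb downstream (gene on mm10 chromosome 14, 63943706 to 63950732, plus strand). This site, inside Msra (64137571 to 64137934), had signal 19.8 and rank 14790, and the TSS of the protease gene Prss52 was closer to it. In the window, the pooled list was highest 3.35 kb upstream of the TSS (63940174 to 63940537, signal 15.8, rank 26688). Replicate 1 had that place at rank 22397 and replicate 2 had no region there. Replicate 2 was highest 37.5 kb downstream, at rank 9141, where neither replicate 1 nor the pooled list had a region.

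**Figure D2:**
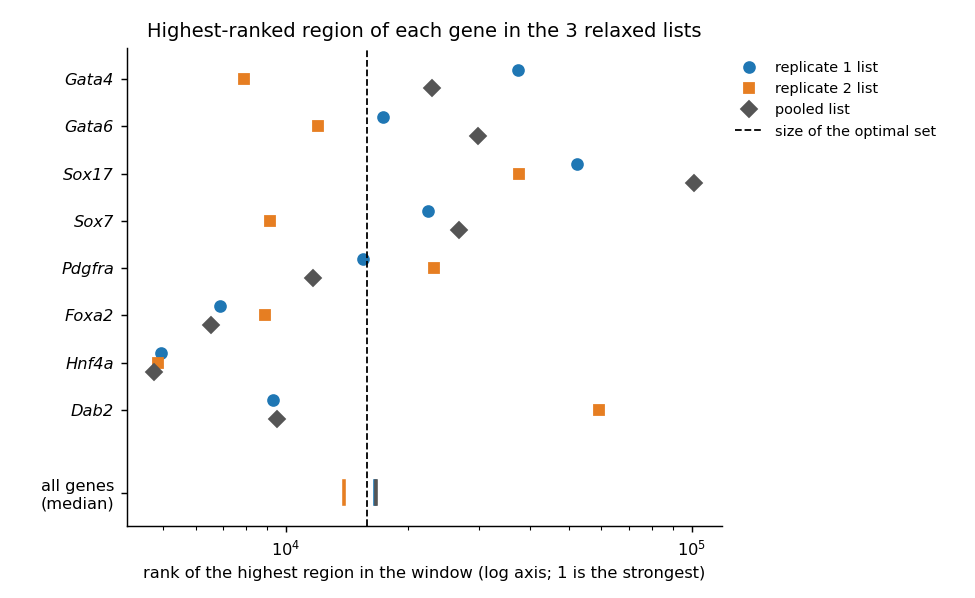
Rank of the highest region in each gene's window in the relaxed lists of replicate 1, replicate 2 and the pool (x axis, log scale, 1 is the strongest), with bars for the median of all genes (16631, 13934 and 16704; the bars of replicate 1 and the pool nearly coincide). The dashed line is the size of the optimal set, 15891. The markers of Hnf4a lie together between ranks 4733 and 4937, while those of Gata4, Sox7 and Dab2 are far apart.

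The genes named by the top of each replicate's list were not all the same. With the top 15891 regions of replicate 1 alone, the genes with a summit were Pdgfra, Foxa2, Hnf4a and Dab2, 4 of 8, against 48.5% of all genes. With the top 15891 of replicate 2 alone they were Gata4, Gata6, Sox7, Foxa2 and Hnf4a, 5 of 8, against 54% of all genes. Hnf4a and Foxa2 were in each, and at Foxa2 the places differed. How many of all genes are named by both lists is not given here. The difference is therefore not shown to be particular to the 8 genes. It also depends on the cut: in replicate 1 the highest region of Pdgfra had rank 15539 and that of Gata6 rank 17347. Over the 13 summits, 9 overlapped a top region of replicate 1 (69.2%, against 86.3% of the optimal set) and 4 a top region of replicate 2 (30.8%, against 54.6%). Regions of replicate 2 of any rank overlapped 12 (against 84.9%). Only 2, the Hnf4a pair upstream, overlapped top regions of both (15.4%, against 50.4% of the optimal set). With regions of any rank, 12 of the 13 were overlapped in both replicates, against 84.7% of the optimal set. The conservative set overlapped 5 of the 13 (38.5%, against 56.7%). By gene, Foxa2 and Hnf4a had a summit of the conservative set, 2 of 8, against 33.7% of all genes. A summit overlapped at any rank in both replicates was present at 4 of 8, against 43.8% of all genes. With top ranks required in both it was present at 1 of 8, Hnf4a, against 30.5%. No test was made of these shares, and neighbouring summits share regions. The relaxed lists are long, so a window holds a median of 19 pooled regions over all genes. The 4 genes without an optimal summit had 17 to 27, of which 2 to 6 were overlapped by a region of each replicate. The genes with an optimal summit had 12 to 33, of which 3 to 9 were so overlapped, and these ranges overlap. The same count over all genes is not given here.

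Windows narrower or wider than 50 kb named the same genes. The member summit nearest the edge was that of Hnf4a at 43.4 kb, and the closest ones outside were Pdgfra sites 54.8 kb downstream (signal 22.5) and 66.0 kb upstream. The second of these (75085222 to 75085474) was stronger than every summit inside a window, with signal 181.5 and rank 697, ranks 629 and 995 in replicates 1 and 2, and conservative-set membership. The TSS of Gsx2 was nearer to it, at 9.76 kb. A site 198.2 kb upstream of Pdgfra had signal 387.0 and rank 63, with Chic2 as the nearest TSS. Foxa2 had further sites 78.1, 140.4 and 141.1 kb downstream, with signals 32.4, 53.6 and 86.2, each in the conservative set and with Foxa2 as the nearest TSS. With 10 kb and with 100 kb, 4 of 8 had a summit, against 25.4% and 67.1% of all genes. The same 4 were left when the gene body was not counted, against 44.9%, and when a summit counted only for the nearest TSS, against 27.9%. By the nearest TSS, Hnf4a kept only 1 summit, the one 4.36 kb downstream, which was not in the conservative set. Its pair of summits upstream, the place in the top regions of each replicate, then counted for Fitm2. Counted for the nearest TSS at any distance, a setting added after the data were seen, 6 of 8 had a summit, against 33.4%, since the distal sites of Gata6 and Sox17 then enter.

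**Figure D3:**
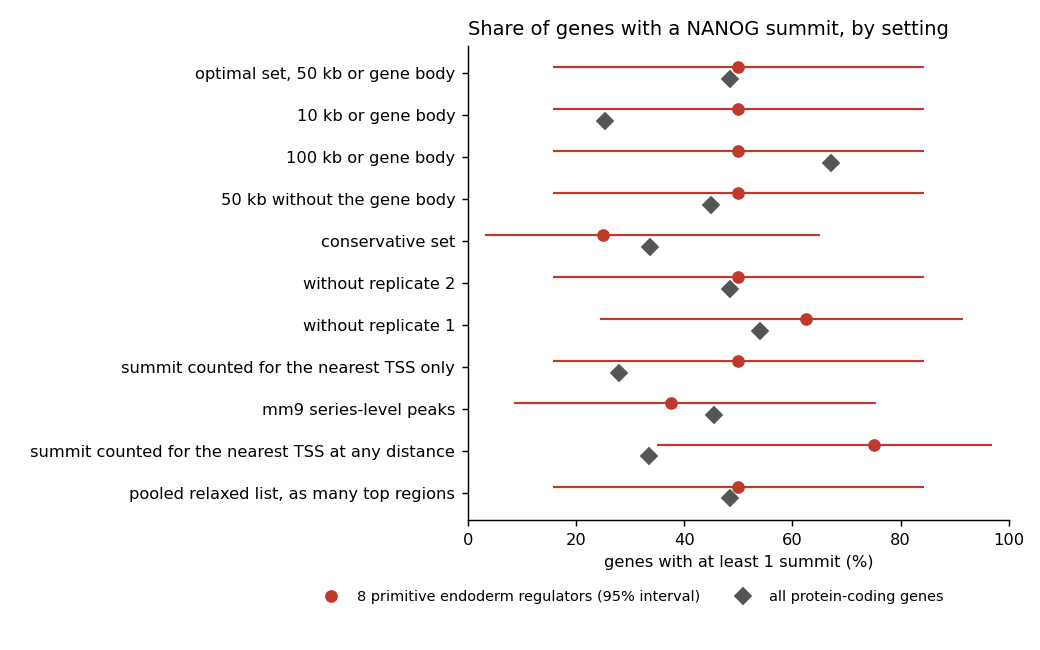
Share of genes with at least 1 NANOG summit (x axis, percent) for the 8 genes (circles, with 95% Clopper-Pearson intervals) and for all protein-coding genes (diamonds), under each setting (y axis). The 8 genes stand at 50% in most settings, with intervals as wide as 15.7 to 84.3%, and at 75% where a summit is counted for its nearest TSS at any distance.

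Genes of the same lineage, and of FGF signalling, are given by counts in lists that were not tested. Of 28 genes of primitive endoderm, its basement membrane and FGF signalling, 21 had a summit (75%), with a median highest signal of 48.1, against 48.4% and 52.0 over all genes. The highest belonged to FGF signalling: Fgfr2, an FGF receptor (268.3), Spry4, a feedback inhibitor (149.2), Etv5, an ETS factor (135.0), Fgfr1, the other FGF receptor of this choice (131.2), and Dusp6, a phosphatase of ERK (121.6). They were followed by Lrp2, which encodes megalin, the receptor that DAB2 serves (83.9). Every FGF signalling gene of this list had a summit, so the 75% is not that of lineage genes alone. The collagen IV genes of the list share their highest summit. Of 18 genes of visceral endoderm, 10 had a summit (55.6%) with a median of 92.0. The highest were Dkk1, a WNT antagonist (357.4), Otx2, a homeobox gene (334.0), Hhex, a homeobox gene (138.2), the transferrin gene Trf (134.3), Gsc, a homeobox gene (117.5), and Apoe, an apolipoprotein gene (66.4). The summits counted for Hhex, Trf, Gsc and Apoe were nearer to the TSS of another gene.

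Relatives and partners of the 8 genes had a summit in 7 of 13 cases (53.8%), with a median of 79.6. Pdgfa, which encodes the ligand of the PDGFRA receptor, had signal 128.0 at 8.80 kb downstream inside the gene. Kit and Kdr, receptor kinase genes that neighbour Pdgfra, had 101.1 and 79.6. Gata1 and Gata2, GATA factor genes of blood, had 132.7 and 32.9, each with another TSS nearer. Dab1, the relative of Dab2, had 68.7 inside the gene. Gata3, Gata5, Foxa1, Foxa3, Hnf4g and Pdgfrb had 0 summits in the window, and Foxa1 is also in the list of visceral endoderm. As a reference point for the ChIP, 6 of 6 pluripotency loci had a summit that the conservative set and top regions of each replicate overlapped, with highest signals of 314.3 for Pou5f1, 292.1 for Esrrb, 256.5 for Tfcp2l1, 93.5 for Sox2, 59.6 for Nanog and 57.1 for Klf4. The highest of the 8 primitive endoderm genes, Hnf4a at 60.5, was just above Nanog and Klf4 and below the other loci. The TSS of Fitm2 was nearer to that Hnf4a summit. Foxa2, Dab2 and Pdgfra were below all 6 loci.

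**Figure D4:**
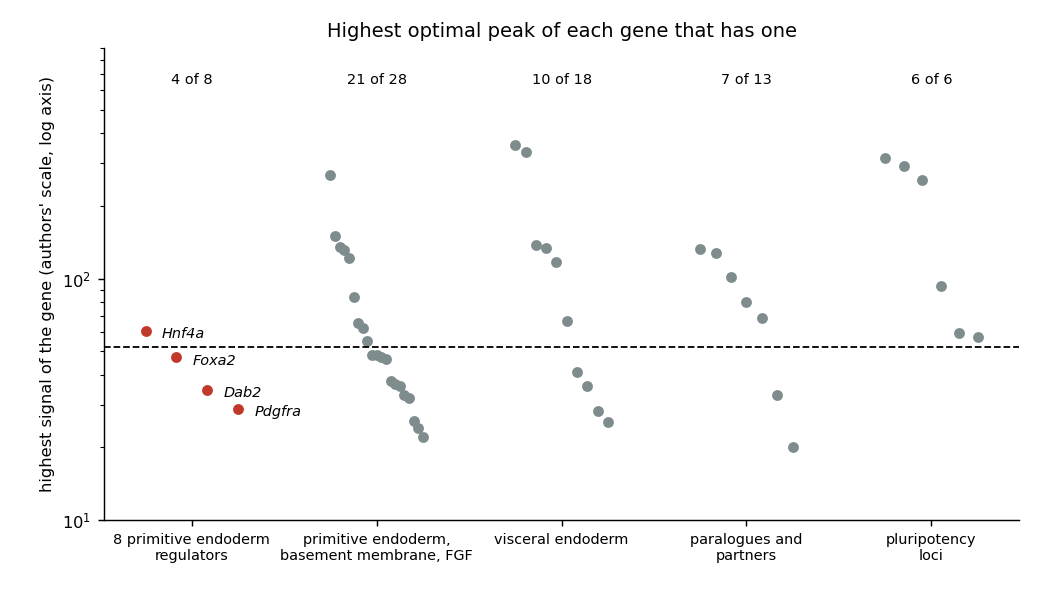
Highest signal of each gene that has an optimal summit (y axis, the authors' scale, log axis), by gene list (x axis), with the number of genes with a summit above each list and the median over all genes, 52.0, as a dashed line. Of the 8 primitive endoderm regulators, Hnf4a (60.5) is above the line, and Foxa2 (47.2), Dab2 (34.7) and Pdgfra (29.0) are below it.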

How the data were processed

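The peak lists of 2 biological replicates of NANOG ChIP-seq were used. Per the deposited file descriptions, 3 relaxed mm10 lists of 300000 regions (replicate 1, replicate 2, pool) went into IDR, which gave the optimal (15891) and conservative (9431) sets. By the field order of the format, each deposited mm10 region carries a signal of unstated scale, a −log10 q-value and a summit offset. The mm9 lists deposited by the authors carry an enrichment (a ratio, reference unstated), a −log10 p-value, and a q-value that was read as untransformed. Aligner, caller, versions, IDR threshold and read depth: not given in the sources used here. Other file types that the labels name were not used here.

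Python 3.11.15 with NumPy 2.4.6 and pandas 2.3.3 assigned summits to genes, a step tested on simulated data. SciPy 1.17.1 gave the intervals and matplotlib 3.10.9 the figures. Gene spans came from RefSeq GRCm38.p6, with the strand from its promoter table (17492 genes) or the mm9 annotation (3994), and the TSS was the 5′ end of the gene. Replicate support meant an overlap of at least 1 bp, and a top region one of the first 15891 of a replicate's list by signal. mm9 sequence (NCBIM37) and GENCODE annotation served mm9 peaks only, and no coordinate was converted. With 1 group, no condition was compared and no p-value was computed. Named genes were the 8 members, up to 6 per list with the highest signal, the genes nearest to or holding a member's peak, the 3 most like Hnf4a, and the pluripotency loci. Paralogues with 0 summits were named after their values were seen. Members and lists were chosen with earlier results of these data known. Coordinates are 1-based.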

Additional observations from a re-analysis of the deposited data

How the results depend on the processing

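The count of 4 genes with a summit was the same in windows of 10 kb and 100 kb, against 25.4% and 67.1% of all genes. It was also the same without the gene body (44.9% of all genes) and when a summit counted only for the nearest TSS (27.9%). Counted only for the nearest TSS, Hnf4a kept 1 summit in place of 4. In the main setting the share of all genes was 48.4%, so an unchanged count did not keep its place against the background. The count was 3 with mm9 series-level peaks (45.5% of genes counted on mm9) and 2 (Foxa2 and Hnf4a) with the conservative set (33.7%). Leaving out a replicate gave 4 to 5 genes and 7 to 9 summits in place of 13. The share of all genes was 48.5% without replicate 2 and 54% without replicate 1. Mean summits per gene over all genes were 0.923 and 1.02 in these settings, against 0.933 in the main setting. The member summits thus fell where the mean over all genes did not fall much, which was not tested. Pdgfra and Dab2 were absent without replicate 1, and Gata4, Gata6 and Sox7 without replicate 2. How many of all genes change in this way is not given here. Summits fell to 6 with 10 kb and to 5 with the conservative set. The mean over all genes also fell, from 0.933 summits per gene to 0.447 and 0.546. Of the 4 genes whose sites both replicates overlapped at any rank (43.8% of all genes), 1 was left (Hnf4a) when top ranks were required (30.5%). The summit with the highest signal, the Hnf4a one 43.4 kb upstream, stood at 29.7% of the optimal set from the top. By q-value the first of the 13 was its neighbour at 43.2 kb, at 27.6% (rank 4390), while the summit highest by signal had rank 7674. In the conservative set the highest by signal, also at Hnf4a, stood at 48.1%. Alternatives chosen after seeing the data were the nearest TSS at any distance (6 genes), the top of the pooled list (4 genes, 10 summits) and joined regions (10 places). The share of all genes was 33.4% for the nearest TSS at any distance and 48.5% for the pooled list. Mean summits per gene over all genes were 0.926 for the pooled list, and the whole optimal set made 15216 places when joined. No paired analysis was possible because there is 1 group. With 8 genes and unknown read depth, shares are imprecise.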
